A study of Mus musculus with 18 samples.

Results

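Reg3g, Anxa3, Plxnb2 and Car2 are 4 of the 36655 gene symbols in a table of FPKM values (fragments per kilobase of transcript, scaled to the mapped fragments of the library) from 18 mouse RNA sequencing libraries. They were picked by name because the D minus N difference of each in long-term haematopoietic stem cells (LT-HSC) was unlike that in myeloid progenitors (MP) and short-term haematopoietic stem cells (ST-HSC). The values that chose them are the 12 D and N libraries described here, so the differences below are a description and carry no test. All 4 symbols were found, each on 1 entry of the table. The working description of the group is genes that respond mainly in induced LT-HSC. For Reg3g, Plxnb2 and Car2 it restates how they were picked, so their values are no check of it. Plxnb2, higher in D in LT-HSC, was also higher in D in the ST-HSC and MP pairs, by up to 1.92-fold. Car2 was lower in D in LT-HSC but higher in D in the ST-HSC and MP pairs, by up to 3.43-fold. The working description does not hold for Anxa3, whose large D minus N differences were in ST-HSC and MP. The LT-HSC values of Anxa3 were near 0 in both N and D.

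The 4 genes have different products. Reg3g encodes a secreted C-type lectin that intestinal epithelium releases and that binds peptidoglycan of Gram-positive bacteria; it is known as a target of interleukin-22 and STAT3 signalling and of Toll-like receptor signalling through MyD88. Anxa3 encodes annexin A3, a calcium-dependent phospholipid-binding protein that is abundant in neutrophils. Plxnb2 encodes plexin-B2, a transmembrane receptor for class 4 semaphorins that also serves as a receptor for the secreted ribonuclease angiogenin on blood stem and progenitor cells. Car2 encodes carbonic anhydrase 2, the cytosolic enzyme that interconverts carbon dioxide and bicarbonate, known for its abundance in red cells, osteoclasts and acid-secreting epithelium.

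The cells came from C57BL/6 mice derived entirely from induced pluripotent stem cells, in which doxycycline switches on Oct4, Sox2, Klf4 and c-Myc; every group, uncultured cells included, carries these inducible genes. LT-HSC, ST-HSC and MP each gave 5 libraries: uncultured (0), cultured for 2 or 4 days as the control without doxycycline (2N, 4N), and cultured for 2 or 4 days with it (2D, 4D). Fibroblasts (Fib) gave 3 libraries, 0, 2D and 4D, with no N control. Each blood library was made from 25 hand-picked cells by oligo-dT priming and 20 plus 9 cycles of PCR, whereas fibroblast libraries followed the standard Illumina route, so library method and cell type cannot be told apart between them. The sources used here do not give the ages of the mice, the surface markers used to sort the cells or the number of mice behind each library. The doxycycline field reads Yes for all 6 N libraries, against their titles and the design text, and the titles were used.

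Each condition is 1 library, and no value below has a replicate of its own condition. The number of reads is not known; the 15 blood libraries summed to between 677649 and 767866 FPKM and had between 10478 and 11365 genes that reached FPKM 1. Sox2, one of the induced factors, stood at 15.6 to 61.3 FPKM in the 6 D blood libraries and at 0 to 1.496 in the 6 N libraries. The other factors did not separate the 6 D from the 6 N libraries. Pou5f1 (Oct4) was listed at 0 in all N and in 3 of the 6 D libraries and reached 2.34 FPKM. Klf4 was at 0 to 22.6 in N and 0.704 to 11.2 in D, and Myc was at 102 to 319 in N and 45.5 to 189 in D. Within pairs, Myc was lower in D than in N in each pair except MP day 4, at 102 in N and 133 in D. Within LT-HSC, Klf4 was listed at 0 in 2N and 4N and stood at 11.2 and 8.16 FPKM in 2D and 4D. The highest N value of Klf4 was in MP 4N, and its D value lay below N in the ST-HSC day 2 and MP day 4 pairs. The library labelled LT-HSC 0 stood apart from its label: its 8 myeloid progenitor markers summed to 41479 FPKM, against 2051 in ST-HSC 0 and 58425 in MP 0, with the granule genes Mpo at 7525 and Elane at 13554. Its stem cell markers were present too, with Slamf1 at 34.6 and Procr at 215 FPKM. The library labelled LT-HSC 2N held neutrophil markers at a sum of 4979 FPKM, against 6.59 in LT-HSC 4N. That sum was 10275 in LT-HSC 0 and 6682 in MP 0. Slamf1 was at 4.13 and 19.1 FPKM in LT-HSC 2N and 4N and was listed at 0 in both LT-HSC D libraries.

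The promoters of the pair of genes that were higher in LT-HSC D are shown because the genes start from different kinds of sequence. RefSeq entries for GRCm38.p6 covered Reg3g and Plxnb2, 2 of the 4 genes. The windows are the 250 bases before the annotated start, both on the minus strand, written in the direction of transcription: chr6:78468875-78469124 for Reg3g and chr15:89180789-89181038 for the upstream start of Plxnb2. Capitals mark a TATAAA match.
Reg3g: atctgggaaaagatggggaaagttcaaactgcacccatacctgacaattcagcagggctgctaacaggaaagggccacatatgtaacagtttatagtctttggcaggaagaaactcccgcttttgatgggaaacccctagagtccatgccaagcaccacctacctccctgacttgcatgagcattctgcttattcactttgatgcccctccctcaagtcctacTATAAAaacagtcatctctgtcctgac
Plxnb2: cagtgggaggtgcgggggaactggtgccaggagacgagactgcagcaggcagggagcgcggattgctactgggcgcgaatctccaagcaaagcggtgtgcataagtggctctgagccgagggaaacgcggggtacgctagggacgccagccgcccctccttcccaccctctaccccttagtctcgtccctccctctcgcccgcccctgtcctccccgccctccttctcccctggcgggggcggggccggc
The Reg3g window had a GC content of 47.2% and 1 CpG, and its TATAAA match began at position -27 from the start. That motif, searched only in the direction of transcription, was in 7.59% of the 32851 promoter windows. The Plxnb2 window had a GC content of 69.2% and 20 CpG with no TATAAA, and its downstream start had 63.6% and 13; the median over all windows was 52.4% and 6. On both strands, the palindrome TTCNNNGAA bound by STAT factors (in 7.02% of windows), the octamer ATGCAAAT (1.6%), AACAATG as a Sox motif (3.29%) and the E-box CACGTG (6.02%) were in none of these windows. The short Klf motif CACCC, in 52% of windows, was present in each. These matches are a description of letters, not of binding.

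**Figure D1:**
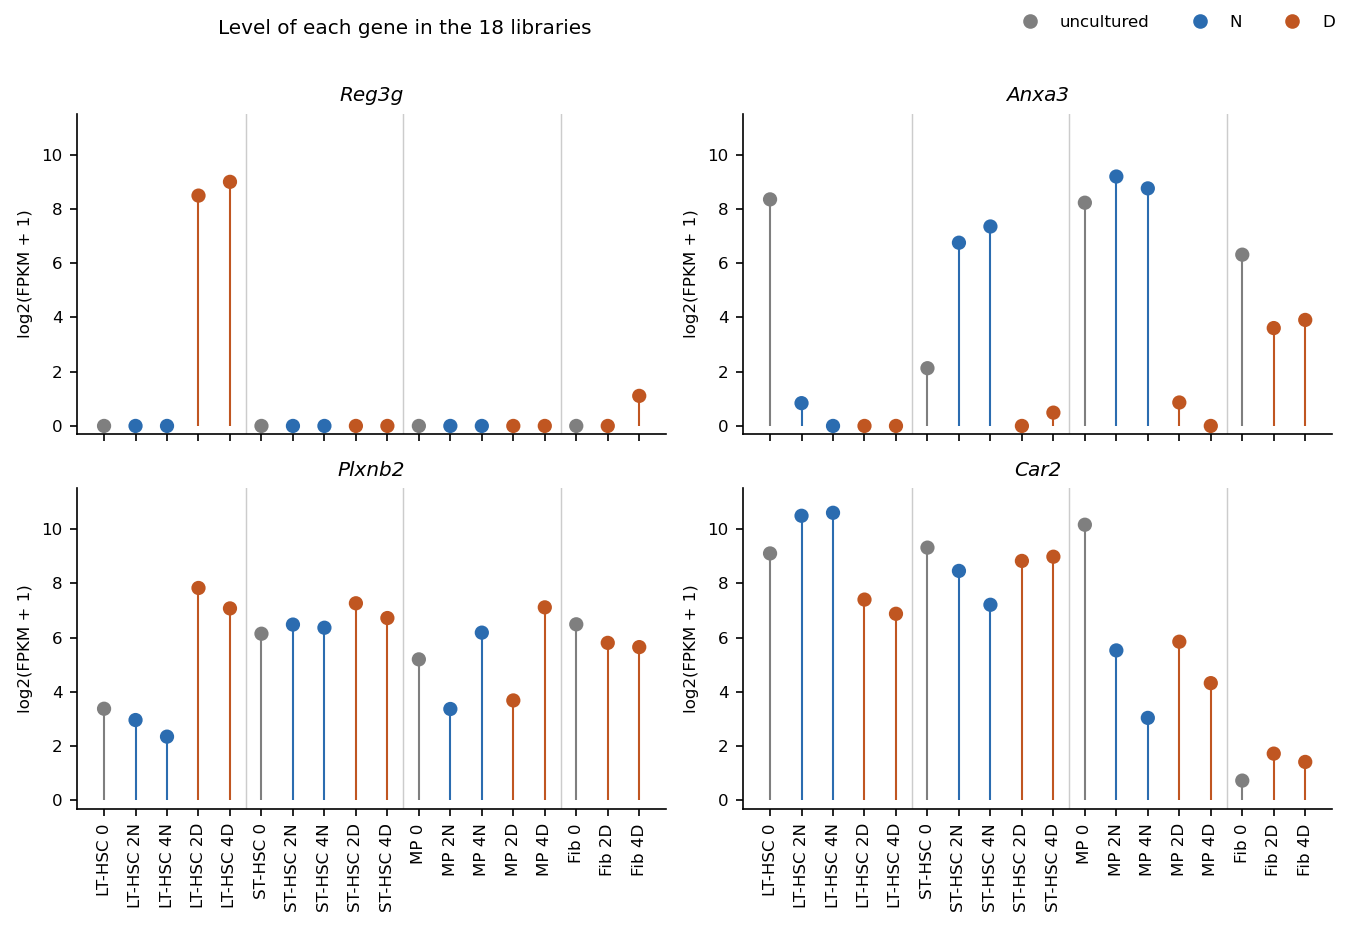
Level of each gene as log2(FPKM + 1), y axis, in the 18 libraries, x axis; each point is 1 library, grey for uncultured, blue for N and orange for D. Reg3g stands above 0 in LT-HSC 2D and 4D and, at 1.16 FPKM, in Fib 4D; Anxa3 is high in ST-HSC N and MP N and near 0 in all 6 blood D libraries; Plxnb2 is lowest in uncultured and N LT-HSC among LT-HSC and ST-HSC libraries; Car2 is highest in LT-HSC N.

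Reg3g (ENSMUSG00000030017) was listed at 358 FPKM in LT-HSC 2D and at 510 in LT-HSC 4D. It was listed at 0 in the other 13 blood libraries, which include every uncultured, N, ST-HSC and MP library. No fold can be given against values of 0. Reg3g ranked 295th of 12551 genes above 0 in LT-HSC 2D and 198th of 12187 in LT-HSC 4D, so its level was among the high ones in those libraries. In a pool of 25 cells, fewer cells with a transcript and less of it per cell cannot be told apart. Fibroblasts had 0 uncultured, 0 at 2D and 1.16 FPKM at 4D. On the log2(FPKM + 1) scale its D minus N difference was 8.49 at day 2 and 9.00 at day 4 in LT-HSC and 0.00 in each ST-HSC and MP pair; the size depends on the added 1.

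This all-or-none profile was uncommon in the table. At FPKM 100 or more in both LT-HSC D libraries and below 1 in the 13 other blood libraries, Reg3g was the only gene, and at FPKM 10 or more the small nucleolar RNA entry SNORA48.6 joined it. These bounds were set on the values of Reg3g itself, so the counts only describe how rare such a profile is. Reg3g is a gut epithelial gene, and the sum over 12 epithelial markers did not separate LT-HSC D from the other libraries: it was 36.6 to 113 FPKM in LT-HSC D, 90.4 to 191 in LT-HSC N and 5.63 to 314 over the 13 other blood libraries. The enterocyte markers Vil1, Krt20, Fabp1 and Fabp2 were listed at 0 in both LT-HSC D libraries, while 8 of the 12 markers reached FPKM 1 in at least 1 of them, led by Krt18 at 47.7 and 0.827 and Epcam at 47.5 and 3.85 at days 2 and 4. Krt18 was higher in LT-HSC N, at 166 and 80.0 FPKM, and Epcam stood at 43.9 in ST-HSC 2D. Krt8 (15.8 in ST-HSC 2D) and Cldn3 (25.3 in MP 4D) had their highest blood values outside LT-HSC D. The epithelial cadherin Cdh1 did separate LT-HSC D from the rest, at 9.05 and 3.10 FPKM in LT-HSC D and 0.995 or less in the 13 other blood libraries. Krt19 was above 0 in blood in LT-HSC 4D alone (3.56). The part of these markers in the Reg3g result was not tested.

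The relatives of Reg3g did not share its profile. Reg1, Reg2, Reg3a, Reg3b, Reg3d and Reg4, which encode the other Reg lectins, were each listed at 0 in all 18 libraries. Reg3a, Reg2 and Reg1 are also its nearest annotated genes on 1 side in the RefSeq order. On the other side the nearest gene in the table, Lrrtm4, a synaptic adhesion protein, was at 2.45 FPKM in LT-HSC 2D, 4.61 in ST-HSC 2D and 0 in the other 13 blood libraries.

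In a list of inducers, receptors and signal carriers around Reg3g, the interleukin-22 receptor chain Il22ra1 was listed at 0 in all 18 libraries. The oncostatin M receptor Osmr was listed at 0 in all 15 blood libraries. Stat3 was present in LT-HSC D at 52.3 and 35.5 FPKM and in LT-HSC N at 41.9 and 72.0. Of the 22 genes of this list, 16 were tested for D against N over the 6 pairs with limma, and 2 were lower and 0 higher at an adjusted p of 0.05, beside 4.44% lower and 4.53% higher of all 12254 genes tested. The list median was -0.43 log2 units, against 0.02 over all genes. The interleukin-11 receptor Il11ra1 fell by 2.09 ± 0.393 (SE; limma adjusted p = 0.0115); N libraries held 1.96 to 8.75 FPKM and D libraries 0 to 0.655. The adaptor Myd88 fell by 1.39 ± 0.269 (limma adjusted p = 0.0135), with 85.0 to 203 FPKM in N and 18.7 to 81.4 in D, and both genes were lower in 6 of 6 pairs. Neither call was lost when any 1 pair was left out. In N against uncultured cells 2 of 17 tested were lower and 0 higher: the interleukin-17 receptor chain Il17rc fell by 2.74 ± 0.750 (limma adjusted p = 0.0462; 6 of 6 N libraries) and the feedback inhibitor Socs3, which fell by 2.98 ± 0.822 (limma adjusted p = 0.0478; 5 of 6), beside 5.8% higher and 3.08% lower of all 12060 genes, a balance that turned with a cell type left out (65 higher and 80 lower without LT-HSC, 13 and 39 without ST-HSC). Both calls were lost without LT-HSC or without ST-HSC, and over all alternatives run the adjusted p reached 0.373 and 0.292. In D, Il17rc stood at 5.16 and 2.35 FPKM in LT-HSC and at 0 in ST-HSC and MP, values picked for mention after they were seen.

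A list of other gut antimicrobial and mucosal genes, of which 17 of 18 were in the table, had 7 tested, 2 lower and 0 higher, with a median of -3.14. The secreted iron-binder Lcn2 fell by 4.31 ± 1.038 (limma adjusted p = 0.0315) and lysozyme Lyz2 fell by 5.32 ± 1.197 (limma adjusted p = 0.0279), each in 5 of 6 pairs. Both are also genes of neutrophils and macrophages. Lcn2 was at 494 FPKM in LT-HSC 2N, a library with high neutrophil markers, and at 0 in LT-HSC 4N. The calls of both genes were lost without LT-HSC day 2, MP day 2 or MP day 4, and that of Lyz2 also without LT-HSC day 4, and the adjusted p reached 0.0969 for Lcn2 and 0.0953 for Lyz2 over all alternatives, the sense in which such upper values are given below. Lyz1, Ang4, Retnlb, Pla2g2a, Muc2 and Pigr, which are intestinal products like Reg3g, were listed at 0 in all 18 libraries.

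Anxa3 (ENSMUSG00000029484) had the opposite arrangement, with its differences in the other cell types. In ST-HSC it was at 3.37 FPKM uncultured, 107 at 2N and 162 at 4N, and at 0 at 2D and 0.405 at 4D. In MP it was at 299 uncultured, 584 at 2N and 431 at 4N, and at 0.820 at 2D and 0 at 4D. In LT-HSC it was at 325 uncultured, 0.790 at 2N and 0 at 4N, and at 0 at both 2D and 4D. All 6 D libraries were thus below 1 FPKM, and N libraries were high in ST-HSC and MP and below 1 in LT-HSC.

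Where both values were above 0, Anxa3 was 401-fold lower in ST-HSC 4D than 4N and 712-fold lower in MP 2D than 2N, and both D values there were under 1 FPKM. The D minus N differences were -6.75 and -6.86 log2 units in ST-HSC, -8.33 and -8.76 in MP, and -0.84 and 0.00 in LT-HSC, for days 2 and 4. At FPKM 10 or more in 1 library of each pair, genes lower by at least 4-fold at both days made up 1.28% of 7006 in ST-HSC and 5.26% of 7068 in MP, and Anxa3 was the member among them in both. Genes higher by this rule made up 2.14% in ST-HSC and 3.57% in MP, with none of the 4 genes. Nothing is read from these counts about the 4 genes, since the same values chose them.

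Culture alone also separated the cell types for Anxa3. In ST-HSC it was 31.7-fold higher at 2N and 48.1-fold higher at 4N than in uncultured cells, in MP 1.96- and 1.44-fold higher. In LT-HSC it was 412-fold lower at 2N than in LT-HSC 0 and listed at 0 at 4N. That LT-HSC contrast rests on the LT-HSC 0 library, whose myeloid markers go against its label, and there is no other uncultured LT-HSC library to set in its place. Fibroblasts, an unrelated cell type, had Anxa3 at 78.5 FPKM uncultured and at 11.2 and 14.001 at 2D and 4D, 7.02- and 5.60-fold lower. Among fibroblast genes at FPKM 10 or more, 4.85% of 8261 were lower by at least 4-fold at both days, Anxa3 among them, and 2.98% were higher, with none of the 4 genes among the latter.

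The summed myeloid progenitor markers followed the same order as Anxa3 over the N groups and were lower in D. Their sum over 8 genes was 29641 to 33484 FPKM in MP N, 6074 to 9833 in ST-HSC N and 626 to 760 in LT-HSC N, against 24.4 to 45.7 in MP D, 214 to 358 in ST-HSC D and 1.84 to 22.6 in LT-HSC D. Cebpe and Fcgr3, a factor and a receptor of maturing myeloid cells, were listed at 0 in all 6 D libraries, and Ctsg also in LT-HSC D. Cd34, also among the 8 genes, was instead lowest in MP in N. It was at 487 and 575 FPKM in LT-HSC N, 596 and 442 in ST-HSC N and 132 and 41.4 in MP N. It made up most of the LT-HSC N sum. The 10 neutrophil markers did not follow Anxa3 in LT-HSC 2N, where they summed to 4979 FPKM with Anxa3 at 0.790. Nor did they in ST-HSC N, where they summed to 6.93 to 15.4 with Anxa3 above 100. In uncultured cells both were high in LT-HSC 0 (10275, with Anxa3 at 325) and MP 0 (6682, with 299). Both were low in ST-HSC 0 (36.4, with 3.37). In MP N the markers summed to 214 to 6706, with Anxa3 at 431 to 584. The part of the myeloid markers in the Anxa3 result was not tested.

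Among the other annexins, which share the calcium-dependent membrane binding, the genes called in D were higher. Of 11 listed, 8 were tested for D against N, and 3 were higher and 0 lower, beside 4.53% higher and 4.44% lower of all 12254 genes, with a median of 0.65. Anxa1, the annexin that acts through formyl peptide receptors, rose by 1.47 ± 0.314 (limma adjusted p = 0.0199; higher in 6 of 6 pairs), with 23.6 to 183 FPKM in N and 115 to 436 in D. Anxa2, which pairs with S100a10 at the membrane, rose by 1.89 ± 0.464 (limma adjusted p = 0.034; 5 of 6 pairs). Anxa8 had no N library above 0, and its D libraries reached 52.4 FPKM, with 4 of 6 above 0 (limma adjusted p = 0.0419). The call of Anxa1 was lost without LT-HSC day 4 or MP day 2, with adjusted p up to 0.0687. That of Anxa2 was lost without either LT-HSC pair, ST-HSC day 2 or MP day 2 (up to 0.113), and that of Anxa8 without either MP pair or the day 2 pair of LT-HSC or ST-HSC (up to 0.121).

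Among 8 binding partners and receptors of annexins, 7 were tested and 1 was higher in D. S100a11, a partner of annexin A1, rose by 1.08 ± 0.291 (limma adjusted p = 0.0472; 6 of 6 pairs), and of the 6 pairs left out in turn only LT-HSC day 4 could be spared without losing the call (adjusted p up to 0.123). In N against uncultured cells the calcium-binding proteins S100a4 and S100a6 rose by 4.53 ± 0.759 and 3.78 ± 0.907 (limma adjusted p = 0.0139 and 0.0371; both 6 of 6 N libraries), 2 of 7 tested. Both calls were lost without LT-HSC or without ST-HSC, with adjusted p up to 0.0587 and 0.184. The count over all genes in that comparison was 1072, 145 without LT-HSC, the cell type whose uncultured library goes against its label, 52 without ST-HSC and 1194 without MP.

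**Figure D2:**
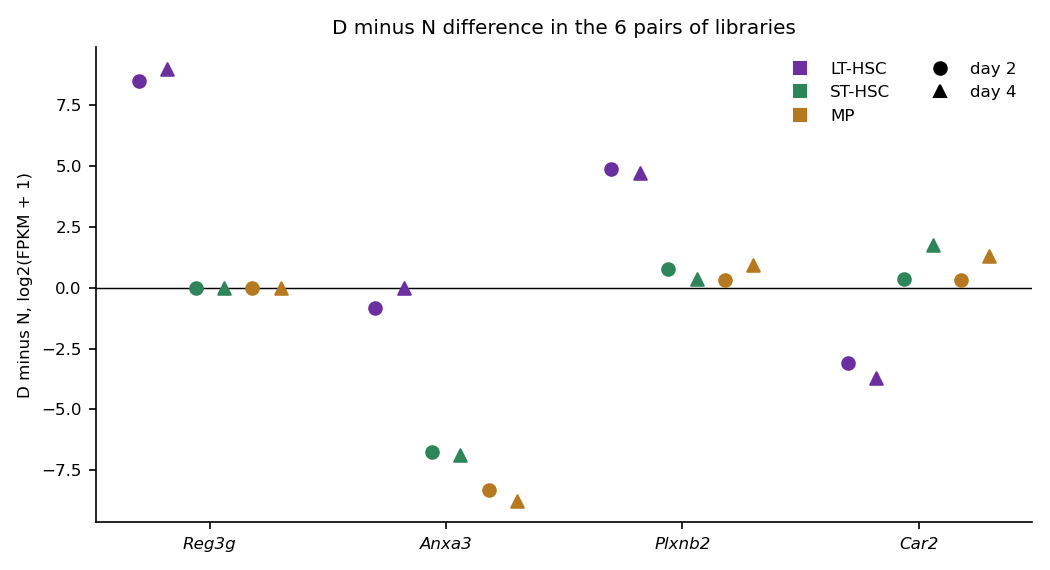
D minus N difference in log2(FPKM + 1), y axis, of each gene, x axis, in the 6 pairs of libraries; colour gives the cell type, circles day 2 and triangles day 4. The LT-HSC points of Reg3g (8.49 and 9.00) and Plxnb2 (4.87 and 4.73) lie above those of ST-HSC and MP, those of Car2 (-3.09 and -3.73) below, and for Anxa3 it is ST-HSC and MP that lie far from 0.

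Plxnb2 (ENSMUSG00000036606) was low in LT-HSC outside D. It stood at 9.39 FPKM in LT-HSC 0, 6.79 at 2N and 4.10 at 4N, and at 226 at 2D and 134 at 4D. The D libraries were 33.3-fold above N at day 2 and 32.7-fold at day 4. In ST-HSC it stood at 69.7 uncultured, 88.2 and 81.3 in N, and 153 and 105 in D at days 2 and 4. In MP it stood at 35.7 uncultured, 9.33 and 71.7 in N, and 11.9 and 138 in D. D lay above N in each of the 4 ST-HSC and MP pairs as well, by 1.27- to 1.92-fold, so Plxnb2 was higher in D in all 6 pairs and the LT-HSC pairs differed in size.

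In the order of levels over libraries, Plxnb2 in LT-HSC D stood near the top. LT-HSC 2D was the highest of the 18 libraries, followed by ST-HSC 2D, MP 4D and LT-HSC 4D, and the lowest 3 were LT-HSC 4N, LT-HSC 2N and MP 2N. The MP libraries differed more by day than by culture: both day 2 libraries were at 9.33 to 11.9 FPKM and both day 4 libraries at 71.7 to 138. With 1 library a condition, neighbours in this order cannot be separated. Fibroblasts were at 88.9 FPKM uncultured, 55.0 at 2D and 49.2 at 4D, lower in D by 1.62- and 1.81-fold.

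Of 7092 genes at FPKM 10 or more in 1 library of each LT-HSC pair, 2.3% were higher by at least 4-fold at both days, Reg3g and Plxnb2 among them, and 4.47% were lower, Car2 among them. A stricter pattern asked also that every ST-HSC and MP pair lie at least 1 log2 unit short of the nearer LT-HSC pair: 0.447% of 10067 genes were higher mainly in LT-HSC D, including Reg3g and Plxnb2, and 1.11% were lower, including Car2. As the D minus N values chose the 4 genes, these shares are given as background only.

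Among the other plexins, Plxnc1, a semaphorin receptor of blood cells, stood above Plxnb2 in LT-HSC outside D, at 31.2 FPKM in LT-HSC 0, 17.0 at 2N and 11.48 at 4N, and at 4.69 and 0 in 2D and 4D; it was picked for mention after its values were seen. Of 12 plexins and co-receptors, 7 were tested for D against N, and 2 were higher and 0 lower, with a median of 1.24. Plxna1, a receptor for class 3 and class 6 semaphorins, rose by 2.02 ± 0.399 (limma adjusted p = 0.0145; 6 of 6 pairs). Its N libraries held 0.317 to 2.14 FPKM and its D libraries 5.26 to 10.7, and no left-out pair ended the call. The receptor kinase Met, which can associate with B-class plexins, rose by 2.44 ± 0.592 (limma adjusted p = 0.0316; 6 of 6 pairs), and stood at 0 in both LT-HSC N libraries and at 17.3 and 14.4 FPKM in LT-HSC D. The call of Met was lost without either LT-HSC or either ST-HSC pair, with adjusted p up to 0.0916. The closest relatives, Plxnb1 and Plxnb3, were at 1.16 FPKM or less in all blood libraries.

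Ligands were sparse. Of 20 semaphorins, 6 were tested, 1 was lower and 0 higher, with a median of -1.11. Sema4a, a class 4 ligand, fell by 3.64 ± 0.851 (limma adjusted p = 0.0284; 6 of 6 pairs), with 0.314 to 124 FPKM in N and 0 to 4.44 in D, and in LT-HSC N it was only at 0.314 and 1.89. Its call was lost without ST-HSC day 2 or either MP pair, with adjusted p up to 0.0879. Sema4d, the class 4 ligand with the highest levels in cultured LT-HSC, was at 18.9 and 29.9 FPKM in LT-HSC N and 10.9 and 13.04 in LT-HSC D; it was picked for mention after its values were seen. Sema4c, another class 4 ligand, was listed at 0 in all blood libraries and at 4.92 to 18.5 in fibroblasts.

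Downstream, 12 of 13 plexin-B effectors and angiogenin genes were tested for D against N with limma and 0 were called. An unadjusted p under 0.05 was found for 2 of them, beside 2945 of all 12254 genes tested, so nothing is read from these 2. Their median was -0.01. Angiogenin itself (Ang) was at 11.3 and 15.6 FPKM in LT-HSC D, 3.37 in LT-HSC 4N, 11.03 in MP 4N and 0 in the other 11 blood libraries, and its inhibitor Rnh1 was at 142 to 411 FPKM in all 15; both were picked for mention after their values were seen. In N against uncultured the small GTPase Rap1b, a substrate of plexins, fell by 1.02 ± 0.272 (limma adjusted p = 0.0436; 6 of 6 libraries), and the call was lost without any 1 of the 3 cell types, with adjusted p up to 0.229.

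Car2 (ENSMUSG00000027562) was abundant in blood cells and was highest in LT-HSC N. In LT-HSC it stood at 548 FPKM uncultured, 1434 at 2N and 1554 at 4N, and at 168 at 2D and 117 at 4D. D was 8.53-fold below N at day 2 and 13.3-fold below at day 4. In ST-HSC it stood at 636 uncultured, 351 and 147 in N, and 453 and 504 in D. In MP it stood at 1141 uncultured, 45.1 and 7.23 in N, and 56.6 and 19.0 in D. D lay above N in the 4 ST-HSC and MP pairs, by 1.26- to 3.43-fold, so the direction in LT-HSC was opposite to that in the other cell types.

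The N libraries that serve as controls differed strongly between cell types for Car2. Against uncultured cells it was 2.61- and 2.83-fold higher in LT-HSC 2N and 4N, 1.82- and 4.33-fold lower in ST-HSC, and 25.3- and 158-fold lower in MP. The LT-HSC ratios use the LT-HSC 0 library and have no value without it. The D libraries kept an order of ST-HSC, then LT-HSC, then MP at both days, and LT-HSC D stood below all 3 uncultured blood libraries. Fibroblasts had 0.659 FPKM uncultured and 2.30 and 1.67 in D. On abundance, Car2 ranked 43rd and 33rd in LT-HSC 2N and 4N and 802nd and 1274th in LT-HSC 2D and 4D among genes above 0.

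Marker lists of megakaryocytes and red cells were measured beside Car2. The 7 megakaryocyte and platelet markers summed to 339 to 556 FPKM in LT-HSC N, with all 7 at FPKM 1 or more in at least 1 of them, and to 0 to 1.35 in LT-HSC D, with Pf4, Ppbp, Itga2b, Gp1bb, Gp9 and Vwf at 0. The sums were 38.7 to 49.1 in ST-HSC N, 7.69 to 14.1 in ST-HSC D, 18.9 to 31.2 in MP N and 3.07 to 3.75 in MP D. These markers moved with Car2 in LT-HSC, but their sums were also lower in D in ST-HSC and MP, where Car2 was higher in D. The part of these markers in the result was not tested. The 9 erythroid markers summed to 1.12 to 11.2 FPKM in LT-HSC N and 3.53 to 15.1 in LT-HSC D, and Car1, Hba-a1, Slc4a1 and Ermap were at 0 in all of these. They reached 599 in MP 0, where Klf1 stood at 141 and Car2 at 1141.

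Among the other carbonic anhydrases, 5 of 15 were tested for D against N, with 1 lower and 0 higher and a median of -1.97. Car9, a membrane-bound enzyme known as a hypoxia target, fell by 3.13 ± 0.356 (limma adjusted p = 0.00106; 6 of 6 pairs); N libraries held 5.73 to 12.6 FPKM and D libraries 0 to 0.339. It kept its call with each pair left out and was lower in all 3 cell types. Car13, Car1 and Car3 lie next to Car2 on 1 side in the RefSeq order. Car13, a cytosolic enzyme, was at 38.3 and 34.5 FPKM in LT-HSC N and 8.39 and 6.29 in LT-HSC D, the same order as Car2. In ST-HSC and MP Car13 was at 0 to 9.82 in N and 0 to 0.944 in D. Car1, the red cell enzyme, was at 366 FPKM in MP 0, 4.57 or less in the other uncultured blood libraries and 0 in all 12 cultured ones. It fell by 4.14 ± 1.069 in N (limma adjusted p = 0.0385; 6 of 6 libraries), and the call was lost without any 1 of the 3 cell types, with adjusted p up to 0.155.

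Of 17 genes of acid and bicarbonate transport, which act beside carbonic anhydrases, 10 were tested, 2 were lower and 0 higher in D, with a median of -0.29. Tcirg1, a subunit of the vacuolar proton pump, fell by 2.19 ± 0.371 (limma adjusted p = 0.00715; 6 of 6 pairs), with 38.6 to 257 FPKM in N and 12.2 to 66.9 in D, and kept its call with each pair left out. Slc9a3r1, a scaffold of the sodium-proton exchanger, fell by 1.73 ± 0.383 (limma adjusted p = 0.0229; 6 of 6 pairs), a call lost without either LT-HSC or either MP pair, with adjusted p up to 0.0762. The anion exchanger Slc4a1 of red cells and the pump subunit Atp6v0d2 of osteoclasts were listed at 0 in all 18 libraries.

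Over all lists, 78 of 142 genes were tested for D against N, 6 were higher and 8 lower, beside 4.53% higher and 4.44% lower of all 12254 genes. Car9, Tcirg1, Il11ra1, Myd88 and Plxna1 kept their calls under every alternative run, and Anxa1 and Slc9a3r1 lost theirs only with a pair left out. The other 7 calls also ended under at least 1 other added value, filter or limma option.

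The direct test of whether D minus N differs between LT-HSC and the other cell types was read only for the list genes, since it is the contrast that chose the 4 genes. Over all 12254 genes limma called 4, or 0.0326%, and 1388 had an unadjusted p under 0.05. With 1 pair of libraries left out the count went from 0, without ST-HSC day 4 or MP day 4, to 9, without ST-HSC day 2. Of the 78 list genes tested 0 were called, 10 had an unadjusted p under 0.05, and the smallest adjusted p was 0.173. No difference of the relatives and pathway genes between LT-HSC and the other cells was therefore shown, which does not show that they responded alike.

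As values, the mean D minus N of LT-HSC less that of ST-HSC and MP was 8.74 for Reg3g, 7.25 for Anxa3, 4.20 for Plxnb2 and -4.34 for Car2. Among 10067 genes, Reg3g ranked 1st and Anxa3 3rd from the top, Plxnb2 44th, and Car2 65th from the bottom. Extreme ranks follow from the choice of the 4 genes on this same contrast, so nothing is read from them. The numbers behind the Anxa3 rank were -0.42 in LT-HSC and -7.67 in the other cells, so its high rank came from the latter. In the plot of LT-HSC against the other cells, equal responses lie on the diagonal.

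**Figure D3:**
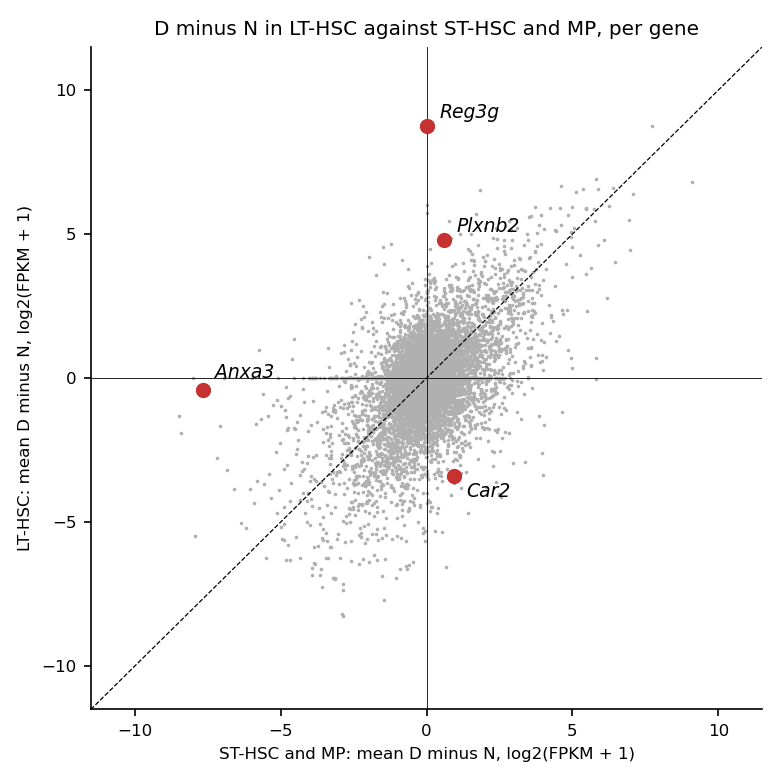
Mean D minus N difference in log2(FPKM + 1) per gene in LT-HSC, y axis, against the mean over ST-HSC and MP, x axis; each grey point is 1 of 10067 genes and the dashed line marks equal values. Reg3g (0.00, 8.74) and Plxnb2 (0.60, 4.80) lie above the diagonal, Car2 (0.94, -3.41) below it, and Anxa3 (-7.67, -0.42) lies far to the left.

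The 4 genes did not share a profile over the 15 blood libraries. Pearson's r between their log2(FPKM + 1) values was 0.438 for Reg3g with Plxnb2 and -0.363 to -0.109 for the other 5 pairs of genes. The 3 genes most like each of them among 10631 were therefore different for each. These likenesses are descriptions over libraries of like amplification and unknown depth.

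Reg3g was most like SNORA48.6 (r = 0.993), a small nucleolar RNA entry, Wwc1 (0.980), a scaffold of the Hippo pathway, and Elavl2 (0.977), a neuronal RNA-binding protein. The likeness rests on LT-HSC 2D and 4D: SNORA48.6 was at 17.7 and 10.99 FPKM there, Wwc1 at 4.83 and 13.9 and Elavl2 at 4.67 and 13.1, and all 3 were at 0.334 or less elsewhere in blood. Anxa3 was most like Ms4a3 (0.986), a membrane protein of granulocyte and monocyte progenitors, Ctsg (0.983), the granule protease cathepsin G, and Rab44 (0.979), a Rab GTPase. Ctsg is also 1 of the 8 myeloid markers above, and Ms4a3 repeated the order of Anxa3 in N, with 0 in both LT-HSC, 183 and 313 FPKM in ST-HSC and 1662 and 1239 in MP.

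Plxnb2 had looser neighbours: Rhot2 (0.836), a mitochondrial GTPase, Tesk1 (0.805), a kinase of actin regulators, and Aifm2 (0.797), an oxidoreductase. Tesk1 went from 2.495 and 1.99 FPKM in LT-HSC N to 14.96 and 16.6 in LT-HSC D. Car2 was most like the thrombin receptor F2r (0.913), the lipid transfer protein Stard10 (0.873) and the ubiquitin ligase Rnf213 (0.858). F2r stood at 140 and 117 FPKM in LT-HSC N and 19.8 and 13.9 in LT-HSC D. Without the LT-HSC 0 library, a check chosen after seeing the data, the 3 genes were the same for Reg3g and Anxa3. For Plxnb2 Rhot2 remained (0.816), with Rnf215 (0.793) and Fubp1 (0.786), and for Car2 the third became Nrgn (0.863).

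**Figure D4:**
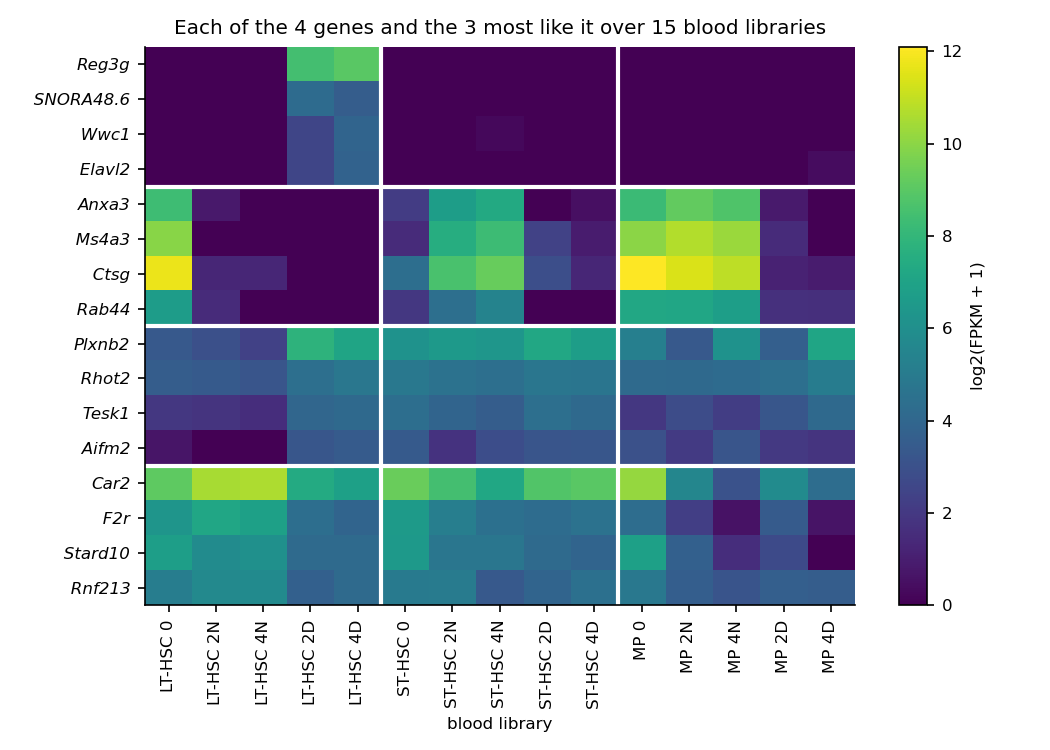
Level as log2(FPKM + 1), colour scale, of each of the 4 genes and the 3 genes most like it, rows, in the 15 blood libraries, columns; white lines separate the 4 sets and the 3 cell types. The Reg3g set is bright only in LT-HSC 2D and 4D, the Anxa3 set is bright in LT-HSC 0, MP 0 and the N libraries of ST-HSC and MP, and the Plxnb2 and Car2 sets vary over most libraries.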

How the data were processed

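RNA-seq of 18 mouse libraries was used as deposited: 1 FPKM value per gene and library, made by the authors with TopHat and Cufflinks on mm9, per the submitters' processing notes; the sources used here give no versions and no annotation. Depth is unknown: ratios of low values showed no whole-read steps (at most 2.29% lay within 2% of each other over 4 library pairs). A 0 can be a failed estimate and is written as listed at 0. The 36818 entries gave 36655 symbols, 158 of them summed over several entries.

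Values were log2(FPKM + 1), so fold changes of low genes on that scale are understated. Genes whose mean reached FPKM 1 entered limma (version 3.58.1, in R 4.3.3; trend and robust options, Benjamini-Hochberg adjustment over all genes tested, threshold 0.05, two-sided). The fits were D against N with a term for each of 6 pairs of cell type and day, the same with a product of D and LT-HSC, and N against uncultured with cell type as block. These fits take libraries of different cell types and days as replicates, so p-values measure the spread between such libraries. In N against uncultured, the 2N and 4N libraries of a cell type share 1 uncultured library. Counts such as 6 of 6 N libraries are therefore not independent comparisons. Genes with 1 library a side were counted past 4-fold only at FPKM 10 or more. Named were the 4 genes, the 3 most correlated with each (mean FPKM of at least 1, FPKM 10 in 1 blood library), and list genes past the threshold in D against N, up to 6 a list by smallest p. The 6 list genes called in N against uncultured were added after their values were seen; other names are relatives or markers, or are said to be picked. The genes and lists were chosen with earlier results of these data known. Promoter sequences are RefSeq's on GRCm38.p6; no coordinates of the mm9 values are given. Plxnb2 overlaps the microRNA gene Mir7118, whose reads cannot be told apart from its own. Python 3.11.15, with numpy 2.4.6, pandas 2.3.3 and matplotlib 3.10.9, made the tables and plots. Alternatives: the added value, filters, scaling, limma options, and pairs or cell types left out. Values of some marker genes are not reported here.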

Additional observations from a re-analysis of the deposited data

Results flagged for a closer look

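Car2 moved in opposite directions in D between cell types: both LT-HSC pairs had D below N (-3.09 and -3.73 log2 units at days 2 and 4), and both ST-HSC pairs (0.37 and 1.77) and both MP pairs (0.32 and 1.28) had D above N. The mean difference of LT-HSC less that of ST-HSC was -4.47, and less that of MP -4.21. The difference was not tested, because Car2 was chosen on this contrast.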

How the results depend on the processing

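No log2 value of a named gene changed sign under any alternative run; the balance of calls did. D against N gave 1099 calls, and 529 (without MP day 2) to 1042 (without ST-HSC day 2) with 1 pair left out. The LT-HSC-specific difference gave 4 calls, 0 with 0.1 added before the log (1269 at an unadjusted p under 0.05), 32 with 10 added, 1 without a filter on low values, 1 at a mean FPKM of at least 5, 8 without limma's trend and robust options, and 0 to 9 with 1 pair left out. The higher and lower calls went from 3 and 1 to 9 and 23 with 10 added, and for D against N from 555 and 544 to 423 and 468 at a mean FPKM of at least 5. N against uncultured gave 1072 calls (700 higher and 372 lower; 549 and 413 after quantile normalization), 636 without the filter, 420 without the limma options, and 52 (without ST-HSC) to 1194 (without MP) with 1 cell type left out. The genes higher mainly in LT-HSC D numbered 45, 86 with 0.1 added, 7 with 10 added and 70 at a log2 fold of 1.5; those lower numbered 112 and 47 with 10 added. The causes were not tested. Over all alternatives the LT-HSC value less that of ST-HSC and MP ranged from 5.45 to 12.06 for Reg3g, 4.65 to 8.37 for Anxa3, 3.06 to 4.41 for Plxnb2 and -4.66 to -4.02 for Car2; the widest moves of the first 3 came with another added value. Over the list genes past the threshold and their alternatives, the call was kept 156 times and lost 82 times. Besides left-out libraries, it was lost without the filter for Sema4a, Lcn2, Met, Anxa2, Anxa8, S100a11, S100a6, Car1, Rap1b, Il17rc and Socs3. The labels carry no replicate numbers; the pairs of the D against N fits are the libraries of 1 cell type and day. Depth is unknown, so no detection limit is given for values of 0.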
